A study of Mus musculus with 12 samples.

Results

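The interferon-inducible GTPases examined here are 10 mouse genes of 2 families: the guanylate-binding proteins Gbp2, Gbp3, Gbp5, Gbp6, Gbp7 and Gbp9, and the immunity-related GTPases Irgm1, Irgm2, Igtp and Ifi47. They were taken by symbol from a table of 46731 genes, and all 10 were found. RNA was sequenced from ATDC5 cells, a mouse chondrogenic line, that stably carried a lentiviral hairpin under puromycin selection, either a control (shRNA-NC) or one against the RNA helicase gene Ddx5 (shRNA-Ddx5). Each line was kept for 6 h in medium or with TNF-α (25 ng/ml) together with IL-1β (5 ng/ml), which gave 4 groups of 3 libraries. The study describes the replicates as biologically independent experiments. A single hairpin against Ddx5 was used, so an effect of the knockdown and of that hairpin or line cannot be told apart.

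Fragments on genes numbered from 14119199 to 19276520 per library. The deposited values are FPKM, fragments scaled to gene length and library size, which can be compared between genes and, as scaled by the authors, between libraries. Ddx5 itself had a mean of 319 ± 22.3 FPKM (SD, n = 3) in shRNA-NC and 103 ± 13.9 in shRNA-Ddx5 in medium, while with cytokines it had 310 ± 14.9 and 99.5 ± 5.27, and the lines did not overlap. Libraries of 1 group correlated at 0.973 to 0.993 and libraries of different groups at 0.897 to 0.961. Replicate 2 of shRNA-NC with cytokines stood apart. It was the highest of its 3 libraries for 447 (79.1%) of the 565 genes that were higher after knockdown with cytokines by a log2 difference of at least 1. The same held for 263 (61.7%) of the 426 genes that were lower by at least as much. It was the highest for 8 of the 10 GTPase genes, beside 30.8% of all tested genes. Its Ddx5 level of 302 FPKM lay beside the 327 and 301 of the other libraries of its group. Values that it moved by more than 1.5 times are given with and without it. Of the 9 chondrogenic markers 4 passed the filter on low values, and Acan, the main cartilage proteoglycan, held at most 9 fragments in any group of 3 libraries. The summed level of the 9 was 40.1 to 45.2 FPKM in shRNA-NC and 31.4 to 34.2 in shRNA-Ddx5 in medium, and 13.04 to 18.3 and 10.5 to 10.6 with cytokines. The 4 tested markers had no common direction after knockdown by limma at an adjusted p under 0.05. In medium Col11a1 was higher, Col2a1 was lower and 2 did not pass. With cytokines Col11a1 was higher, Col2a1 and Sox9 were lower and 1 did not pass. The part of the summed level in the results was not tested.

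GBPs and IRGs are GTPases that cells make in large amounts in response to interferon, and that gather on the membranes around intracellular bacteria and parasites. GBPs are large dynamin-like proteins that assemble on such membranes and help to open them. IRGs fall into effectors, such as the product of Ifi47, and regulators with a changed nucleotide-binding loop, the products of Irgm1, Irgm2 and Igtp, which sit on the membranes of the cell itself and keep the effectors off them. In the promoters of these genes the ISRE, bound by IRF proteins, and the GAS are the known interferon elements, and κB sites are bound by NF-κB, which IL-1β and TNF-α activate.

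The 10 genes lie in 4 places, by the coordinates of the files, which follow GRCm39. Gbp5, Gbp7, Gbp3 and Gbp2 stand on the plus strand of chr3:142202695-142343769 with Gbp2b between Gbp3 and Gbp2. Gbp9 and Gbp6 are on the minus strand of chr5:105224332-105443733. Irgm1 and Ifi47 lie within chr11:48756072-48987814, on opposite strands. Igtp and Irgm2 are neighbours on the plus strand of chr11:58090382-58113609, 7385 bases apart.

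RefSeq promoters (build GRCm38.p6, 250 bases before to 50 after the start) were matched for 8 of the 10 genes, in 9 entries, since Gbp3 has 2. Gbp6 and Gbp9 had no entry. The ISRE was searched as GAAANNGAAA and the GAS as TTCNNNGAA, together with the κB consensus, on both strands. An ISRE match stood in 7 of the 8 genes, where 3.44% of all 32851 promoters hold it. A GAS match stood in 4 genes (Gbp5, Gbp7, Igtp and Irgm2) against 8.30% of all promoters, and all 4 also held an ISRE, which 0.454% of all promoters do. A κB match stood in 2 genes, Gbp5 and Gbp2, against 8.46% of all promoters. Ifi47 and the other Gbp3 entry held none of these letters in this window. No match overlapped another kind of match, but the ISRE matches of Gbp3 and of Irgm1 were pairs that share 4 bases. The stretches that hold these matches follow, 5′ to 3′ in the direction of the gene, ending at the base before the start, 250 bases long for Gbp5 and 110 for the others. Capitals mark the matches: GAS where they read TTCNNNGAA, κB at -77 to -68 of Gbp5 (counted back from the start), and otherwise ISRE, which is read on the opposite strand in the Gbp genes.
Gbp2 (chr3:142620553-142620662, plus strand): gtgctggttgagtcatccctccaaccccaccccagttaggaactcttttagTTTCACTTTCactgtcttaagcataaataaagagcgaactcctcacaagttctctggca
Gbp3 (chr3:142559934-142560043, plus strand): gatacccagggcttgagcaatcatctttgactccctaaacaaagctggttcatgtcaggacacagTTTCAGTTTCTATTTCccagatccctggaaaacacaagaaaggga
Gbp5 (chr3:142496684-142496933, plus strand): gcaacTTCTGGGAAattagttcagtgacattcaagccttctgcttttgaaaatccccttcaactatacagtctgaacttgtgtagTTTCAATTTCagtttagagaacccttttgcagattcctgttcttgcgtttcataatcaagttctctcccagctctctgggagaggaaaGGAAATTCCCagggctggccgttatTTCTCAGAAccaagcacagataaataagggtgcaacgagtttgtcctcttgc
Gbp7 (chr3:142530226-142530335, plus strand): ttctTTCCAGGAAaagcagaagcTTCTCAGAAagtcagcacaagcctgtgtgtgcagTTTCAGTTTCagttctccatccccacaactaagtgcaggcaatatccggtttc
Irgm1 (chr11:48871421-48871530, minus strand): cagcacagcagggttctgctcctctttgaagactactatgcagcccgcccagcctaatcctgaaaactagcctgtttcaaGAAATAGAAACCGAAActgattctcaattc
Igtp (chr11:58199446-58199555, plus strand): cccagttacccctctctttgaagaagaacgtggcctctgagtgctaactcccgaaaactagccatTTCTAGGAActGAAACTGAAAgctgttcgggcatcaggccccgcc
Irgm2 (chr11:58214867-58214976, plus strand): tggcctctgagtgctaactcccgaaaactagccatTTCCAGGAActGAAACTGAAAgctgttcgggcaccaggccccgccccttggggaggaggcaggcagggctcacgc

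In Igtp and Irgm2 the GAS and the ISRE were 2 bases apart, and 78 of the 80 bases at which the printed stretches can be laid side by side were identical (97.5%). Over the longer stretch before the start, at the same offset, 134 of 220 bases were identical (60.9%). In Gbp7 the nearest GAS and ISRE were 25 bases apart and in Gbp5 71. Counted from the start, the ISRE lay at -59 to -50 in Gbp2, -53 to -44 in Gbp7, -64 to -55 in Irgm2 and -34 to -25 in Igtp. Its pairs spanned -45 to -30 in Gbp3 and -30 to -15 in Irgm1, and in Gbp5 it lay farther away, at -165 to -156. The κB match of Gbp2 lay after the start, at bases 8 to 17, outside the printed stretch. These matches are descriptions of the letters, and binding was not measured in these files.

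**Figure D1:**
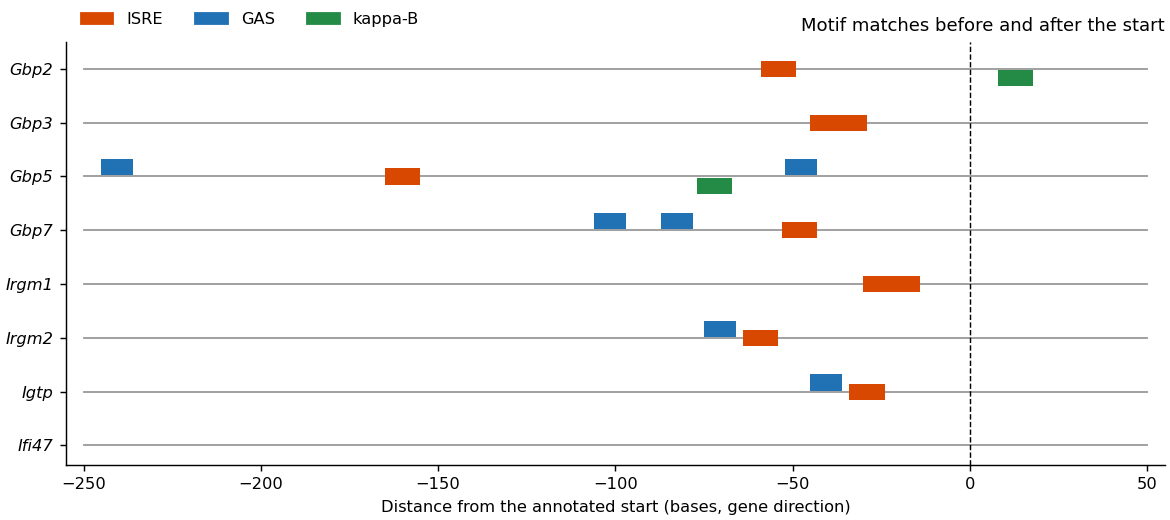
Motif matches in the promoters of 8 GTPase genes, with the distance from the annotated start in bases on the x axis and a row per gene. Boxes mark ISRE, GAS and κB matches, and 7 of the 8 rows hold an ISRE, 6 of them nearer to the start than that of Gbp5, while Ifi47 holds no match.

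In medium the genes were low. Irgm1 was the highest in both lines, with 6.79, 6.47 and 8.48 FPKM in the shRNA-NC libraries and 6.31, 6.49 and 5.90 in shRNA-Ddx5. Gbp2 (mean 3.70 FPKM) and Igtp (3.18), whose libraries overlapped, followed in shRNA-NC, and these 3 genes held 44.1%, 22.5% and 19.3% of the summed level of the 10. Gbp3, Irgm2 and Gbp7 had means of 0.510 to 0.876 FPKM in shRNA-NC and Ifi47 and Gbp9 of 0.148 and 0.0364. Gbp5 and Gbp6 had no fragment in any of the 3 shRNA-NC libraries, and 3 and 5 fragments in all in shRNA-Ddx5. For the test 3 or more libraries had to reach an FPKM of 1, as was so for 12368 genes. All 10 GTPase genes passed, but only Gbp2, Irgm1 and Igtp would have passed on the medium libraries alone, and the others passed through the cytokine libraries in which they are high. Gbp9 reached 1 FPKM only in the 3 shRNA-Ddx5 libraries with cytokines, and Gbp6 in those and 1 of shRNA-NC with cytokines. Both thus passed the filter through the group in which they were higher after knockdown. Counts of calls over the 10 genes are therefore given also without the filter, over 27209 genes. Shares of genes whose libraries do not overlap are over the tested genes only.

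With cytokines the shRNA-NC cells raised these GTPases, and Gbp2 became the most abundant of them. Gbp2, which acts on pathogen vacuoles, went from 3.58, 3.67 and 3.85 FPKM in medium to 124, 119.9 and 105, a ratio of means of 31.4. Gbp3 went from 0.672, 1.05 and 0.901 FPKM to 48.8, 45.9 and 43.8, a ratio of 52.7. Gbp5, described as an aid to inflammasome activation, went from no fragment to 8.82, 12.5 and 9.71 FPKM, which is at least 190-fold higher against a floor of 3 fragments per library. On the log2 scale these 3 genes changed most, and none of their libraries overlapped between conditions.

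By the ratio of means the regulators of the IRG family changed least. Irgm1, which also acts in autophagy, was at 14.0, 14.8 and 14.1 FPKM with cytokines, 1.97 times its mean in medium. Igtp, needed for resistance to Toxoplasma, was at 7.61, 10.2 and 8.89 FPKM (2.80 times) and Irgm2 at 2.11, 3.10 and 2.70 (3.60 times). Ifi47, the effector, was at 2.02, 2.33 and 2.09 FPKM against 0.148 ± 0.116 (SD, n = 3) in medium, a ratio of 14.5 that rests on 18 fragments in medium. Gbp7, which takes part in oxidative defence at phagosomes, was at 3.504, 4.41 and 4.11 FPKM, 7.87 times its level in medium. The 2 genes on chromosome 5 stayed low, with replicate 2 far above the others. Gbp6 was at 0.296, 1.88 and 0.285 FPKM, at least 24.2-fold higher than the floor in medium with replicate 2 and at least 8.58-fold higher without it. Gbp9 was at 0.265, 0.929 and 0.286 FPKM, a ratio of 13.6 with that library and 7.58 without.

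In all 10 genes every cytokine library of shRNA-NC lay above every medium library, as in 23.7% of all tested genes. By limma on log2(FPKM + 1) with Benjamini-Hochberg adjustment over the 12368 genes, all 10 were higher, where 18.6% of all genes were, and without the filter 9 of 10 were, where 7.77% were. The log2 differences ran from 0.50 (Gbp9, standard error 0.15, adjusted p = 0.023) to 4.66 (Gbp3, 0.11, 1.7e-10), with a median of 1.35 beside 0.02 over all genes. This scale understates the change of genes below 1 FPKM. Gbp6 (0.75, adjusted p = 0.034) did not pass without the filter on low values (adjusted p = 0.080), and it and Gbp9 did not pass when any medium library of shRNA-NC was left out (adjusted p of 0.052 to 0.077). Without replicate 2 with cytokines their differences were 0.37 for Gbp6 (adjusted p = 0.012) and 0.30 for Gbp9 (0.046). The composition of the culture and the RNA per cell cannot be told apart in bulk libraries.

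**Figure D2:**
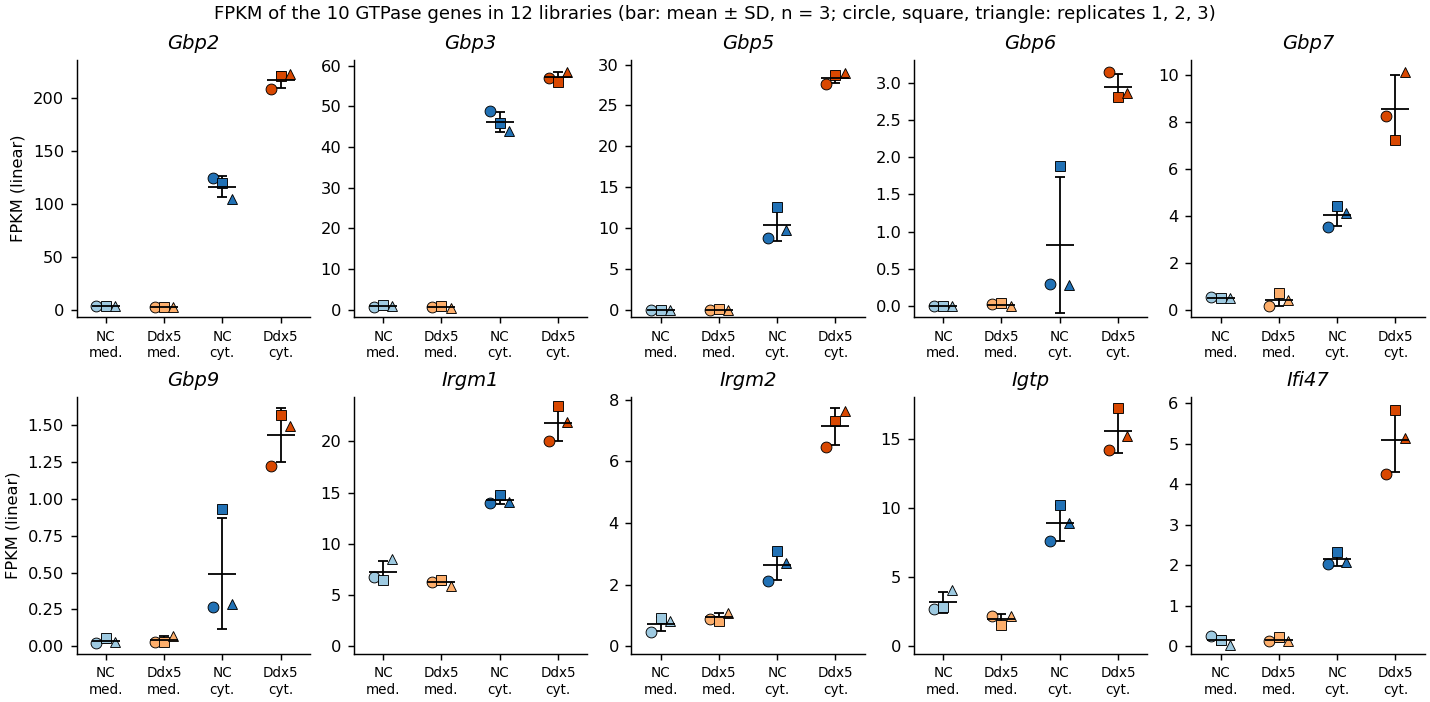
FPKM of each GTPase gene (y axis, linear, a panel per gene) in the 3 libraries of the 4 groups on the x axis, with black bars for mean ± SD. In every panel the shRNA-Ddx5 libraries with cytokines are the highest, and in Gbp6 and Gbp9 replicate 2 of shRNA-NC with cytokines stands above its group.

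In shRNA-Ddx5 cells the cytokines raised the same 10 genes. Gbp2 reached 208, 220.2 and 222 FPKM from 2.92, 2.41 and 2.71 in medium, a ratio of 80.8. Gbp3 reached 56.8, 56.0 and 58.4 FPKM from 0.728, 0.890 and 0.402, a ratio of 84.8. Gbp5 reached 27.6, 28.7 and 28.9 FPKM against 3 fragments in medium, a ratio of 1502 over pooled fragments with a 95% counting interval of 514 to 7289, and moved past Irgm1 to the third place. Irgm1 again had the smallest ratio, 3.49. Igtp and Irgm2 stood at 7.95 and 7.58 times their medium level, and Gbp7 at 20.4 times. Ifi47 and Gbp9 stood at 31.9 and 34.2 times, from 17 and 14 fragments in medium. Gbp6 stood at 149 times, from 5 fragments, with a 95% counting interval of 64.0 to 463 over pooled fragments. The values of Gbp5 and Gbp6 in shRNA-NC are bounds against a floor and cannot be compared with these ratios.

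Here too no cytokine library of any of the 10 genes overlapped a medium library (23.3% of tested genes). All 10 were higher by limma, where 13.5% of genes were, and all 10 without the filter, where 6.60% were. They had log2 differences of 1.22 (Gbp9) to 5.89 (Gbp2), a median of 2.44 beside 0.00 over all genes, and adjusted p-values of 0.00011 (Gbp6) or less. The order of the levels with cytokines was Gbp2, Gbp3, Gbp5, Irgm1, Igtp, Gbp7, Irgm2, Ifi47, Gbp6 and Gbp9. Among these neighbours Gbp7 and Irgm2 overlapped and the others did not. In shRNA-NC with cytokines the order differed at the exchange of Gbp5 and Irgm1, and Gbp5 with Igtp, Irgm2 with Ifi47 and Gbp6 with Gbp9 overlapped.

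In medium the knockdown lowered 2 of the genes and raised none. Gbp2 fell from a mean of 3.70 to 2.68 FPKM (ratio 0.725), with a log2 difference of -0.35 (standard error 0.08, adjusted p = 0.0044). Igtp was at 2.66, 2.82 and 4.05 FPKM in shRNA-NC and at 2.16, 1.53 and 2.17 in shRNA-Ddx5, a ratio of 0.615 and a log2 difference of -0.49 (0.15, adjusted p = 0.017). Neither gene overlapped between lines, as 24.8% of tested genes did not in that direction. Igtp did not pass when replicate 3 of shRNA-NC (-0.35, adjusted p = 0.060) or replicate 2 of shRNA-Ddx5 (-0.39, adjusted p = 0.064) was left out.

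Over all genes, 21.7% were lower and 25.3% higher in this comparison, so 2 of 10 lower is near that background. Without the filter the same count of 2 stood beside 10.6% of genes that were lower. The other 8 did not pass. Irgm1 had a log2 difference of -0.18 with a 95% interval of -0.39 to 0.03, Gbp3 of -0.17 (-0.42 to 0.08) and Irgm2 of 0.17 (-0.11 to 0.45), intervals that do not show that the lines are alike. Gbp5 and Gbp6 were at or near the floor in both lines, and no ratio is given for them. The median over the 10 genes was -0.05 beside 0.03 over all.

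With cytokines the knockdown raised all 10 GTPases. Gbp2 had a mean of 217 FPKM in shRNA-Ddx5 and 116 in shRNA-NC (ratio 1.87), and Gbp5 of 28.4 and 10.4 (2.74). Among the IRGs, Irgm2 was at 6.47, 7.32 and 7.63 FPKM in shRNA-Ddx5 against the 2.11 to 3.10 of shRNA-NC (2.71), and Ifi47 at 4.27, 5.84 and 5.14 against 2.02 to 2.33 (2.37). Igtp (14.2, 17.2 and 15.2 FPKM, ratio 1.75) and Irgm1 (20.02, 23.4 and 21.9 FPKM, ratio 1.53) rose by smaller factors. Gbp7 was at 8.23, 7.22 and 10.1 FPKM (ratio 2.13), Gbp6 at 3.14, 2.81 and 2.87 and Gbp9 at 1.22, 1.57 and 1.497, and in these 3 libraries Gbp6 and Gbp9 lacked the spread seen in shRNA-NC. Gbp3 rose least, at a ratio of 1.24. The libraries of the lines did not overlap in any of the 10 genes, as in 31.7% of tested genes.

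By limma all 10 passed, where 23.5% of genes were higher. The log2 differences were 1.39 for Gbp5 (standard error 0.11, adjusted p = 2.9e-06), 1.22 for Gbp6 (0.24, 0.0019), 1.17 for Irgm2 (0.13, 3.4e-05) and 0.94 for Ifi47 (0.11, 6.6e-05). They were 0.92 for Gbp7 (0.15, adjusted p = 0.00049), 0.90 for Gbp2 (0.08, 9.8e-06), 0.75 for Igtp (0.15, 0.0018), 0.73 for Gbp9 (0.15, 0.0021), 0.57 for Irgm1 (0.10, 0.0006) and 0.30 for Gbp3 (0.11, 0.047). The median was 0.91 beside 0.01 over all genes. Without the filter 9 of 10 passed, where 11.6% of 27209 genes were higher. Gbp3 was the gene that lost its call there (adjusted p = 0.085), and it also did not pass with a pseudocount of 0.1 (0.27), with quantile normalization (0.26), on FPKM scaled to the sum of fragments (0.10), with a replicate block (0.060) or without any of the 6 cytokine libraries (0.053 to 0.13), replicate 3 of shRNA-NC in medium or replicate 1 of shRNA-Ddx5 in medium (both 0.051).

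Without replicate 2 of shRNA-NC the ratios of means for Gbp6 and Gbp9 moved most. Gbp6 was 3.58 times higher with that library and 10.1 times without it, from 0.291 FPKM in the remaining shRNA-NC libraries, and Gbp9 was 2.90 and 5.19 times higher. Their log2 differences became 1.61 and 0.93. The ratios of the other 8 genes without it lay between 1.23 (Gbp3) and 3.07 (Gbp5), the median ratio over the 10 genes was 2.36 against 2.25 with it, and 9 of 10 passed, where 22.0% of genes were higher. That library was 6.47 times the mean of the other libraries of its group for Gbp6 and 3.37 times for Gbp9, but 1.05 times for Gbp2 and 0.990 times for Gbp3.

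**Figure D3:**
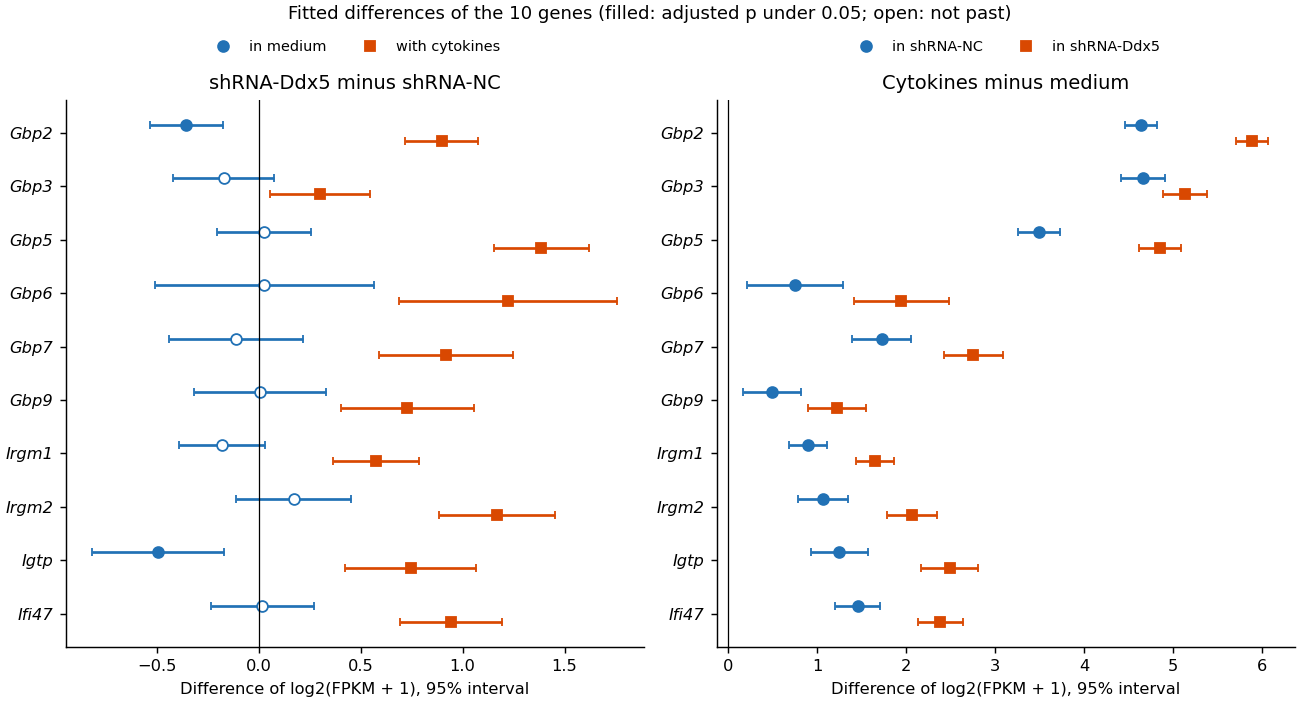
Fitted differences of log2(FPKM + 1) on the x axis with 95% intervals for the 10 GTPase genes on the y axis, for the knockdown in medium and with cytokines (left) and for the cytokines in each line (right). On the left the circles for medium lie at or below 0.17 and the squares for cytokines all lie above 0, with Gbp3 nearest to it.

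The test of the difference between both knockdown effects, which on this scale is also that between both cytokine effects, was positive for all 10 genes and passed for 7 of 10, where 3.46% of all genes passed in that direction, and for 7 of 10 without the filter, where 1.65% did. The 7 were Gbp5 (1.36, adjusted p = 0.00042), Gbp2 (1.25, 0.00015), Igtp (1.24, 0.0045), Gbp7 (1.03, 0.013), Irgm2 (1.00, 0.0070), Ifi47 (0.93, 0.0056) and Irgm1 (0.76, 0.0065). Gbp6 (1.19, adjusted p = 0.058), Gbp9 (0.72, 0.059) and Gbp3 (0.47, 0.097) did not pass. Without replicate 2 of shRNA-NC with cytokines Gbp6 (1.58, adjusted p = 5.5e-05) and Gbp9 (0.92, 0.0026) passed too, making 9 of 10, where 4.20% of all genes passed. For genes near 0 in medium this scale leaves little room for a knockdown effect there. With all libraries kept, their difference nearly repeats the knockdown effect with cytokines: 1.36 and 1.39 in Gbp5, 1.19 and 1.22 in Gbp6, 0.72 and 0.73 in Gbp9, and 0.93 and 0.94 in Ifi47.

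This count was lower under other settings. With a pseudocount of 0.1 the difference passed for 4 genes (Gbp2, Gbp5, Irgm1 and Igtp), where 2.34% of all genes passed, and by limma-voom on the fragments recovered from FPKM for 3 (Gbp2, Irgm1 and Igtp), where 2.74% did. Gbp5, at 0 in shRNA-NC in medium, had a difference of 0.07 by voom (adjusted p = 0.98), and no ratio can be formed against a group without a fragment. Gbp2, Irgm1 and Igtp, the 3 genes above 1 FPKM in every library, passed under every alternative and with every library left out. The comparisons of the knockdown and of the cytokines share their libraries and are not independent of each other.

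The summed level of the 10 genes was 16.4 ± 1.94 FPKM (SD, n = 3) in shRNA-NC and 13.1 ± 0.218 in shRNA-Ddx5 without cytokines. With them it was 206 ± 13.5 and 365 ± 12.6. Gbp2 made up 22.5% of the sum in shRNA-NC in medium, 56.4% with cytokines and 59.4% in shRNA-Ddx5 with cytokines. Irgm1 fell from 44.1% in medium to 6.93% and 5.97%. The share of Gbp5 was 5.03% in shRNA-NC and 7.79% in shRNA-Ddx5 with cytokines, and that of Gbp3 22.4% and 15.7%. Sums of FPKM weigh the abundant genes, and Gbp2 and Gbp3 set most of them.

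**Figure D4:**
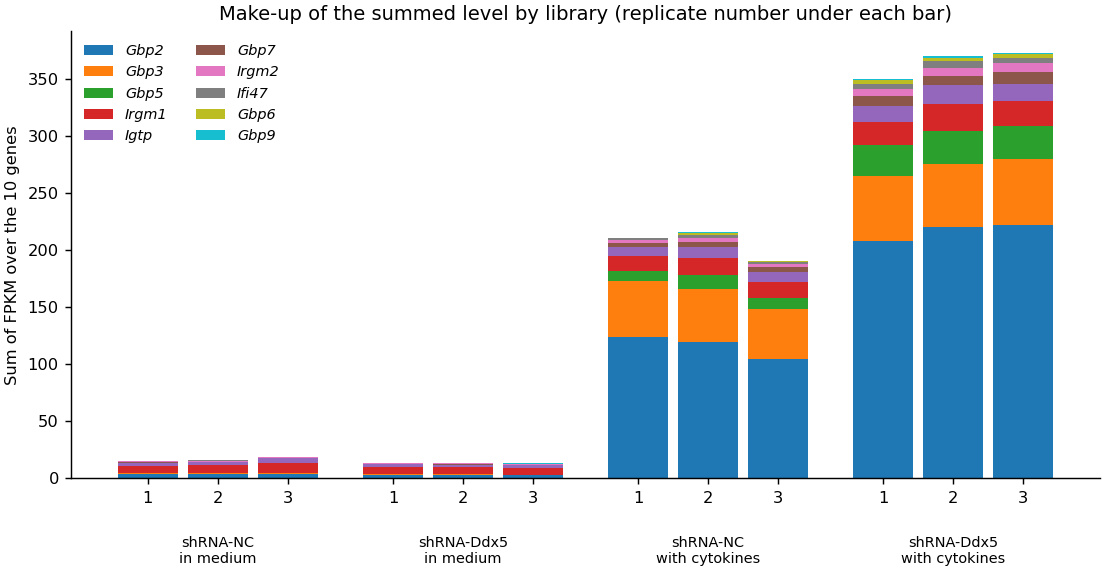
Sum of FPKM over the 10 GTPase genes in each of the 12 libraries (y axis, linear from 0, a bar per library, a colour per gene). The bars stand at 12.9 to 18.6 in medium, 191 to 216 in shRNA-NC with cytokines and 350.3 to 374 in shRNA-Ddx5 with cytokines, and Gbp2 is the largest block in all 6 cytokine bars.

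Of 19 other GBP and IRG genes looked for, 17 were in the table and 2 were tested. Gbp2b, next to Gbp2 on chromosome 3, was at 2.31, 2.58 and 3.12 FPKM in shRNA-NC and at 0.881, 1.03 and 1.11 in shRNA-Ddx5 in medium, a log2 difference of -0.87 (standard error 0.095, adjusted p = 3.6e-05). With cytokines it reached 122, 103 and 106 FPKM in shRNA-NC and 133, 136 and 139 in shRNA-Ddx5, a log2 difference of 0.30 (0.095, adjusted p = 0.022). The latter call was lost with a pseudocount of 0.1 (adjusted p = 0.053), with quantile normalization (0.39) and without replicate 2 or 3 of either line with cytokines (0.059 to 0.078), while that in medium held throughout. Iigp1, an IRG effector, was at 0.292, 0.322 and 0.122 FPKM in shRNA-NC and at 1.79, 2.26 and 2.46 in shRNA-Ddx5 with cytokines, a log2 difference of 1.35 (0.11, adjusted p = 4.1e-06). Iigp1 passed the filter only through these shRNA-Ddx5 libraries, in which it was higher. Its call held in all 7 alternatives that keep all libraries, among them the fit without the filter. The other 15 reached at most 0.564 FPKM in any library and 4 of the 17 had no fragment, among them Gbp8 and Gbp11.

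GBP and IRG genes have near-identical relatives, so reads of Gbp2 and Gbp2b, or of Gbp6 and its chromosome 5 neighbours, may be split or left out by the counting, and levels of single paralogs are uncertain to that extent. Strandedness of the counting was not given in the sources used here. Gm40158, antisense within Gbp3, was at 0.434 FPKM in shRNA-NC and 0.835 in shRNA-Ddx5 with cytokines, and Mir6381, within Gbp2, had a mean of 0.241 FPKM in the latter and no fragment elsewhere. Reads from a gene and its antisense partner cannot then be told apart, though both lie far below Gbp3 and Gbp2.

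Interferon transcripts were not detectable above the floor of 3 fragments in any library. Of 21 interferon genes, 13 had no fragment in the 12 libraries and the other 8 had at most 2 in a library. Ifng, the usual inducer of these GTPases, had none, and 3 fragments would correspond to at most 0.165 FPKM for it. Ifnb1 had 1 fragment in all, in shRNA-Ddx5 in medium. Such floors cover counting error only, and the RNA was taken at a single time.

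The receptors were present, and 2 of 5 tested were lower after knockdown in medium, beside 21.7% of all genes. Ifnar1 was lower after knockdown in medium (log2 difference -0.31, adjusted p = 0.023) and with cytokines (-0.27, adjusted p = 0.042), Ifnar2 was lower in medium (-0.28, adjusted p = 0.021) and did not pass with cytokines (0.12, adjusted p = 0.28), and Il10rb was higher with cytokines (0.41, adjusted p = 0.0077). The Ifnar1 call with cytokines passed in only 5 of the 12 fits that leave out a library and in 4 of 7 other alternatives (adjusted p up to 0.14). In medium the Ifnar1 call passed in 10 and the Ifnar2 call in 8 of the 12 fits (adjusted p up to 0.078 and 0.090). Ifngr2, a chain of the interferon-γ receptor, rose with cytokines in both lines, by 1.55 in shRNA-NC and 1.58 in shRNA-Ddx5, and had a difference of 0.07 between lines with cytokines (adjusted p = 0.68).

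Of 5 signal transducers 4 rose with cytokines in each line, beside 18.6% of all genes in shRNA-NC and 13.5% in shRNA-Ddx5. After knockdown 1 was lower in medium and 1 higher with cytokines, which is near the 21.7% and 23.5% of all genes. Stat2 was higher with cytokines (0.86, adjusted p = 4.4e-05) and did not pass in medium (0.15, adjusted p = 0.23). Irf9 was lower in medium (-0.28, adjusted p = 0.018) and did not pass with cytokines (0.20, adjusted p = 0.081), and its call in medium passed in 8 of 12 fits that leave out a library. Jak1 and Jak2, kinases of the receptors, did not pass for the knockdown in medium (-0.12 and -0.24) or with cytokines (-0.16 and -0.09).

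Of 8 interferon regulatory factors 5 were tested, and 3 were higher after knockdown with cytokines, where 23.5% of all genes were. Irf7 was at 1.02, 2.15 and 1.57 FPKM in shRNA-NC and at 10.7, 11.9 and 13.5 in shRNA-Ddx5 (log2 difference 2.35, adjusted p = 1.5e-06). Irf1 had means of 26.9 and 64.0 FPKM (1.23, adjusted p = 2.1e-05) and Irf5 of 0.458 and 1.31 (0.67, adjusted p = 0.00045). Irf5 passed the filter through the shRNA-Ddx5 libraries with cytokines, the group in which it was highest. All 3 calls held without the filter, where 11.6% of genes were higher. Irf1, which binds the ISRE and is itself a target of NF-κB, rose 1.62 with cytokines in shRNA-NC and 2.67 in shRNA-Ddx5. Irf3 was lower after knockdown in medium (-0.49, adjusted p = 0.016), but not without replicate 1 of shRNA-NC (0.058) or replicate 3 of shRNA-Ddx5 (0.072) in medium. Irf8 had no fragment and Irf4 had 1.

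The inhibitors of interferon signaling were higher after knockdown in 2 of 7 cases in medium and in 2 of 7 with cytokines, both times Socs3 and Usp18, which is near the 25.3% and 23.5% of all genes. Usp18, which blocks the receptor of type I interferon, had means of 0.488 and 1.24 FPKM in medium and 3.96 and 19.1 with cytokines, a log2 difference of 0.59 (adjusted p = 0.015) and 2.05 (adjusted p = 5.7e-06). Socs3 had means of 5.49 and 11.4 FPKM in medium (0.96, adjusted p = 0.0025) and of 13.7 and 40.3 with cytokines (adjusted p = 0.00013). Socs1, the inhibitor of JAK kinases induced by interferon-γ, rose with cytokines in both lines (1.69 and 1.92) and had a difference of 0.17 between them with cytokines (adjusted p = 0.49).

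**Figure D5:**
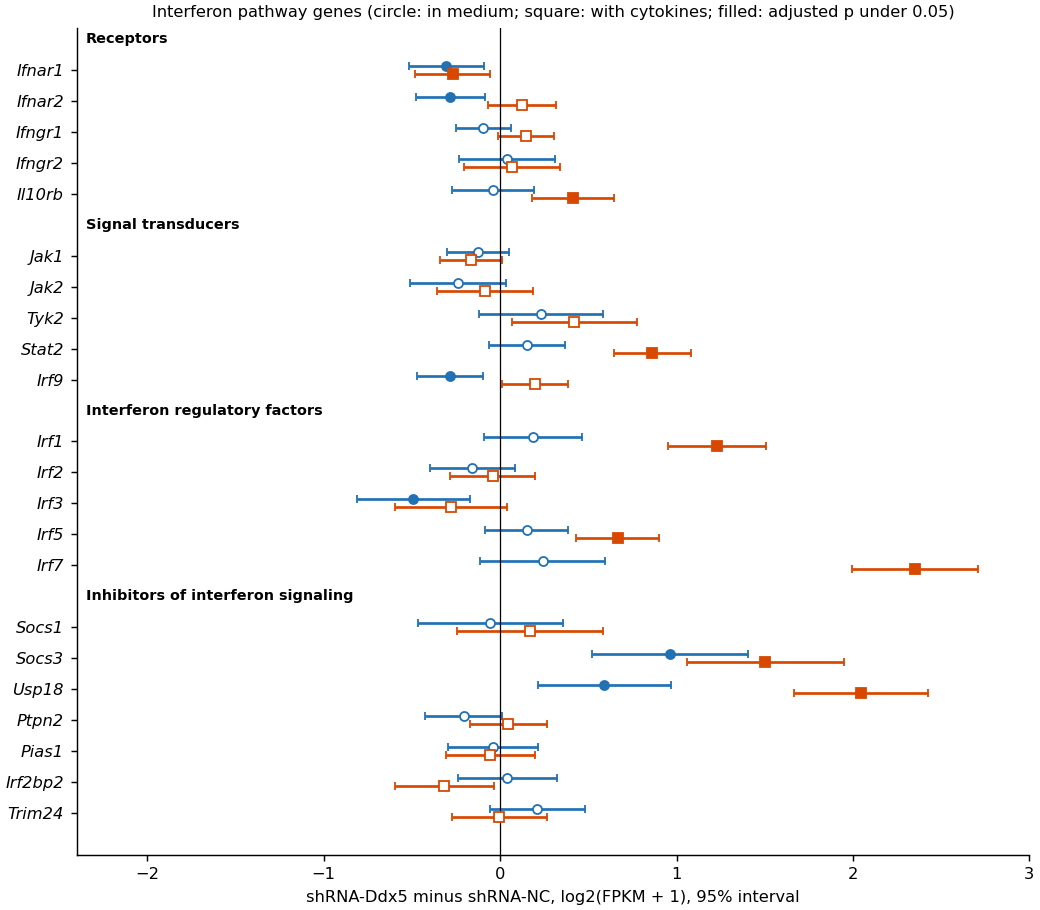
Differences of log2(FPKM + 1) between shRNA-Ddx5 and shRNA-NC on the x axis with 95% intervals, in medium (circles) and with cytokines (squares), for tested interferon pathway genes on the y axis. Irf7, Usp18, Socs3 and Irf1 lie farthest to the right with cytokines, while the receptors lie between -0.31 and 0.41.

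GBPs and IRGs are placed on membranes with help of the ATG8 conjugation system, and its 10 genes had no common direction. In medium 2 were higher and 3 lower after knockdown, beside 25.3% and 21.7% of all genes. After knockdown with cytokines 1 was higher and 4 were lower, beside 23.5% and 22.1% of all genes, and the lower ones held Gabarapl1 (log2 difference -0.77, adjusted p = 9.2e-05), Atg12 (-0.59, 0.0062) and Atg16l1 (-0.36, 0.0099). Cytokines raised 2 of the 10 in shRNA-NC, Atg16l1 (0.53, adjusted p = 0.0016) and Atg3 (0.39, 0.0075), beside 18.6% of all genes. In shRNA-Ddx5 they raised 1, Gabarapl1 (0.53, adjusted p = 0.0020), beside 13.5%, and it did not pass in shRNA-NC (0.25, 0.071). Of 8 inflammasome genes 2 were tested, and 1 was higher after knockdown with cytokines, beside 23.5% of all genes. Il18 did not pass for the knockdown with cytokines (0.33, adjusted p = 0.078) or in medium (-0.16, 0.39). Casp4, the caspase that senses bacterial lipopolysaccharide, had means of 1.24 FPKM in shRNA-NC and 2.33 in shRNA-Ddx5 with cytokines (0.58, adjusted p = 0.0060, and 0.064 with a pseudocount of 0.1), and Gsdmd, which forms the pore that such caspases open, had at most 2 fragments in any group.

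Markers of cells that make these GTPases in large amounts were low. The summed level of 8 macrophage markers was 5.37 to 5.64 FPKM in shRNA-NC and 6.18 to 7.63 in shRNA-Ddx5 in medium, and 7.90 to 10.6 and 11.5 to 12.1 with cytokines. It was higher with cytokines in each line and higher in shRNA-Ddx5 in both conditions, and Cd14 made up most of it. Of the 2 tested markers Cd14 was higher after knockdown with cytokines (0.37, adjusted p = 0.026), a call that passed in 7 of 12 fits that leave out a library, and Cd68 did not pass (-0.20, adjusted p = 0.19). Ptprc had no fragment in any library and Adgre1 had 1 in all 12, and the part of these markers in the results was not tested. The 6 lymphocyte markers summed to at most 0.130 FPKM and the 4 endothelial markers to at most 0.151.

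The genes most like the GTPases were found by Pearson correlation over the 12 libraries with the mean standardized profile of the 10. The first 5 were Nos2 (r = 0.997), which makes nitric oxide, the acute-phase gene Saa3 (0.997), Sod2 (0.996), the mitochondrial superoxide dismutase, the protease gene Prss23 (0.995) and the chemokine gene Ccl20 (0.994). With cytokines Nos2 was at 63.2 FPKM in shRNA-NC and 396 in shRNA-Ddx5. These correlations describe 4 groups whose means differ. With the mean of each group taken away, the first was Ccl3 (r = 0.969), and the pairs of GTPase genes, which correlated at 0.817 to 0.995 over the libraries (median 0.959), ran from -0.492 to 0.946 (median 0.226). Within groups, and in a mean that includes the gene itself, Gbp9, Gbp5 and Gbp6 followed the mean profile most closely (0.965, 0.949 and 0.875) and Gbp3 least (0.0115), and replicate 2 of shRNA-NC with cytokines is among these points.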

How the data were processed

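The 12 ATDC5 libraries fall into 4 groups of 3, as the labels give them. The authors prepared poly-T selected mRNA libraries, read 150 nt from both ends, and deposited FPKM for 46731 genes. The submitters' processing notes list HISAT2 2.0.5, featureCounts 1.5.0-p3, DESeq2 1.20.0, GATK 3.7 and mm10, while the coordinates of the table follow GRCm39. Times and doses come from the study's methods.

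Every FPKM times gene length was a whole multiple of a step per library, to within 3.8e-10, which gave fragments and library denominators. The denominators were 0.957 to 1.08 times the sum of fragments, and intervals and floors cover counting error only. This factor went with the groups, at 1.06 to 1.08 in shRNA-NC and 0.986 to 1.02 in shRNA-Ddx5 in medium. With cytokines it was 0.973 to 1.04 in shRNA-NC and 0.957 to 0.982 in shRNA-Ddx5. 19522 genes had no fragment.

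Values were compared as log2(FPKM + 1) by limma 3.58.1 in R 4.3.3 (trend, 4 group means, no covariate) over the 12368 genes that reached an FPKM of 1 in 3 or more libraries, and p-values were adjusted by Benjamini-Hochberg and called under 0.05. The study tested counts with DESeq2, which does not suit FPKM. Ratios of FPKM means are linear, and a group at 0 was set to a floor of 3 fragments per library. The fit was repeated with a pseudocount of 0.1, without the filter, with a filter by group, and with quantile normalization, scaling to the sum of fragments, limma-voom on recovered fragments, a replicate block and each library left out in turn. The 10 genes are the members of the gene group; list genes were named by highest mean FPKM or largest change among those past the threshold, or, where below it, singled out after their values were seen, and 5 genes by likeness to the 10. The members and lists were chosen with earlier results of these data known. A withheld item is not reported here. Promoters come from RefSeq (GRCm38.p6). Python 3.11.15 and matplotlib 3.10.9 were used for the figures.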

Additional observations from a re-analysis of the deposited data

Results flagged for a closer look

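For these genes the effect of the knockdown with cytokines differed from that in medium by the test of the difference itself, on the log2(FPKM + 1) scale by limma with Benjamini-Hochberg adjustment. Among the GTPases these were Gbp5 (1.36), Gbp2 (1.25), Igtp (1.24), Gbp7 (1.03), Irgm2 (1.00), Ifi47 (0.93) and Irgm1 (0.76). Only Gbp2, Igtp and Irgm1 passed under every alternative. Of the 7 alternatives that keep all libraries, Gbp7, Irgm2 and Ifi47 passed in 5 and Gbp5 in 6. The related genes Iigp1 (1.30) and Gbp2b (1.17) differed as well, and Iigp1 passed the filter only through the shRNA-Ddx5 libraries with cytokines. In the interferon pathway the differences were 2.11 for Irf7, 1.46 for Usp18, 1.05 for Irf1, 0.71 for Stat2 and 0.48 for Irf9, and in the ATG8 conjugation list -0.49 for Atg16l1. Those of Irf9 (adjusted p = 0.034) and Atg16l1 (0.049) passed narrowly, and Irf9 passed in 3 and Atg16l1 in 1 of the 12 fits that leave out a library. That of Usp18 did not pass with a pseudocount of 0.1 (1.10, adjusted p = 0.063) or by limma-voom (0.97, adjusted p = 0.25), nor did that of Iigp1 by voom (adjusted p = 0.081).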

How the results depend on the processing

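Over 950 refits of single GTPase genes (10 genes, 5 comparisons, 19 alternatives) 913 kept their side of the threshold, 29 lost and 8 gained a call. Differences with a call changed direction in 0 refits. Uncalled differences near 0 could change sign, as that of Gbp7 after knockdown in medium did (-0.11, and up to 0.039 with a library left out). The number of genes past the threshold after knockdown with cytokines was 10 and ranged from 9 to 10 with a library left out. With cytokines in shRNA-NC it was 10 and ranged from 8 to 10, in shRNA-Ddx5 it was 10 throughout, and after knockdown in medium it was 2 and ranged from 1 to 2. Of the test of the difference the count was 7 and ranged from 7 to 9, with 4 at a pseudocount of 0.1 and 3 by limma-voom, and the cause was not tested. In the fits that leave out a library, 18.6% to 25.5% of all genes were called higher after knockdown with cytokines. The share was 14.6% to 19.9% with cytokines in shRNA-NC, 9.37% to 15.9% in shRNA-Ddx5 and 1.92% to 4.2% for the difference. After knockdown in medium 39.1% to 50.1% of all genes were called in either direction. Irgm1 also passed in medium (-0.27, adjusted p = 0.043) on FPKM scaled to the sum of fragments. With a replicate block the count was 2 for the knockdown in medium, where 44.1% of all genes passed in either direction. It was 9 for the knockdown with cytokines, where 21.8% of all genes were higher. For the cytokines it was 10 in shRNA-NC (16.9% higher) and 10 in shRNA-Ddx5 (12%), and for the difference 7 (2.37%). The block changed no other call of the 10 genes than that of Gbp3. The replicate numbers were not shown to pair the libraries, since same-numbered libraries correlated at 0.0425 to 0.448 between the medium groups but at -0.0855 to 0.121 between the cytokine groups. Genes with few fragments in medium, Gbp5, Gbp6, Gbp9 and Ifi47, limit what can be said of ratios there.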
